A study of Mus musculus with 14 samples.

Results

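The genes described here are 5 subunits of the GABA-A receptor (Gabra2, Gabra3, Gabra5, Gabrb2 and Gabrd) and the chloride transporters Slc12a2 and Slc12a5. They were chosen by symbol, as genes of GABA signalling and chloride balance, and all 7 were found among the 17927 genes of the count table. The RNA-SEQ libraries, 7 WT and 7 Capn15 KO, were each made from the whole brain of a mouse at postnatal day 2 (P2), with 6 litters in all, to look for transcripts that depend on Capn15, a calpain of the small optic lobe family. The mouse lines were made on C57BL/6J, the mice were untreated, and the disrupted Capn15 allele described in the methods carries a lacZ-Neo insertion. The WT brains came from 2 females and 5 males, and the Capn15 KO brains from 4 females and 3 males. Each library is a separate brain. Litter B gave 4 of the brains, 2 of each genotype, and the other 5 litters gave a WT and a Capn15 KO brain each. In litters A, B and E the WT brains were male and the Capn15 KO brains female, and in C and D the reverse. Litter F gave males only. Within litters, genotype and sex are thus separated only by setting litters of different pattern against each other.

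GABA-A receptors are chloride channels built of several subunits, usually alpha, beta and gamma or delta subunits, and the alpha subunit sets much of where the receptor sits and how it responds. Whether an open channel excites or inhibits a neuron depends on its chloride gradient. Slc12a2 (NKCC1) carries chloride into the cell and Slc12a5 (KCC2), which is largely restricted to neurons, carries it out, and the balance of the transporters moves towards Slc12a5 as neurons mature. Alpha2, alpha3 and alpha5 are abundant in the developing brain, while the delta subunit belongs to receptors outside the synapse and rises later.

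Depth was between 37620954 and 70910163 counts per library, so that 3 counts, taken here as the floor of detection, stood at 0.0423 to 0.0797 CPM (counts scaled to 1000000 per library). Libraries of Capn15 KO brains held 12.2 to 20.2 CPM of Capn15 and WT libraries 18.7 to 27.3 CPM. The lowest WT value and the highest Capn15 KO value both belonged to replicate 7, the all-male pair from litter F, and go against the labels. For this reason the tests of genotype, sex and litter and of the ratios, and the count of relations with marker lists, were also computed without that pair. The fitted Capn15 difference over all 14 libraries was -0.81 ± 0.118 (SE) on the log2 scale, with an adjusted p of 0.0747 in edgeR's quasi-likelihood test. Means were 25.4 CPM in WT and 14.5 CPM in Capn15 KO libraries, so the latter kept part of the Capn15 counts. The paper, which also used edgeR with litter and sex as variables, lists a larger Capn15 decrease that was significant. The reason for this gap was not tested. The labels name neurons as the cell type, but markers of astrocytes, oligodendrocyte precursors, endothelium and choroid plexus were above 0 in all 14 libraries, so the samples are treated as whole brain. In such tissue fewer cells of a type and less RNA per cell cannot be told apart.

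The first question was how much of each transcript these newborn brains, from lines made on C57BL/6J, held. No other strain was examined, so the levels and shares below, that of Gabra2 included, are given for these lines only. Levels of different genes were compared only per length, as counts per kilobase of merged exons scaled to 1000000 over all genes with a length (TPM). Gabra5, an alpha subunit of receptors that lie mostly outside the synapse, had the highest level at 128 ± 17.3 TPM (SD, n = 7) in WT and 135 ± 17.9 in Capn15 KO brains. Slc12a5, the chloride exporter, followed at 112 ± 11.4 and 111 ± 12.1 TPM. Gabra3 stood at 85.6 ± 5.09 TPM in WT and 86.6 ± 4.12 TPM in Capn15 KO brains, and the beta subunit gene Gabrb2 at 68.2 ± 4.79 and 67.8 ± 5.99 TPM. Slc12a2, the chloride importer, reached 22.7 ± 1.25 and 21.9 ± 1.13 TPM. Gabra2 was lower, at 12.3 ± 1.55 TPM in WT and 12.3 ± 1.81 TPM in Capn15 KO brains. Gabrd was the lowest of the 7 at 4.10 ± 0.964 and 4.06 ± 1.27 TPM, from 80 to 284 counts per library. Neighbours in this order did not overlap in range within either genotype, with the exception of Gabra5 and Slc12a5, where Gabra5 was higher in 6 of 7 WT and 7 of 7 Capn15 KO libraries. With the length of the longest transcript in place of merged exons, Gabrb2 (88.1 TPM in WT) stood above Gabra3 (74.3 TPM).

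**Figure D1:**
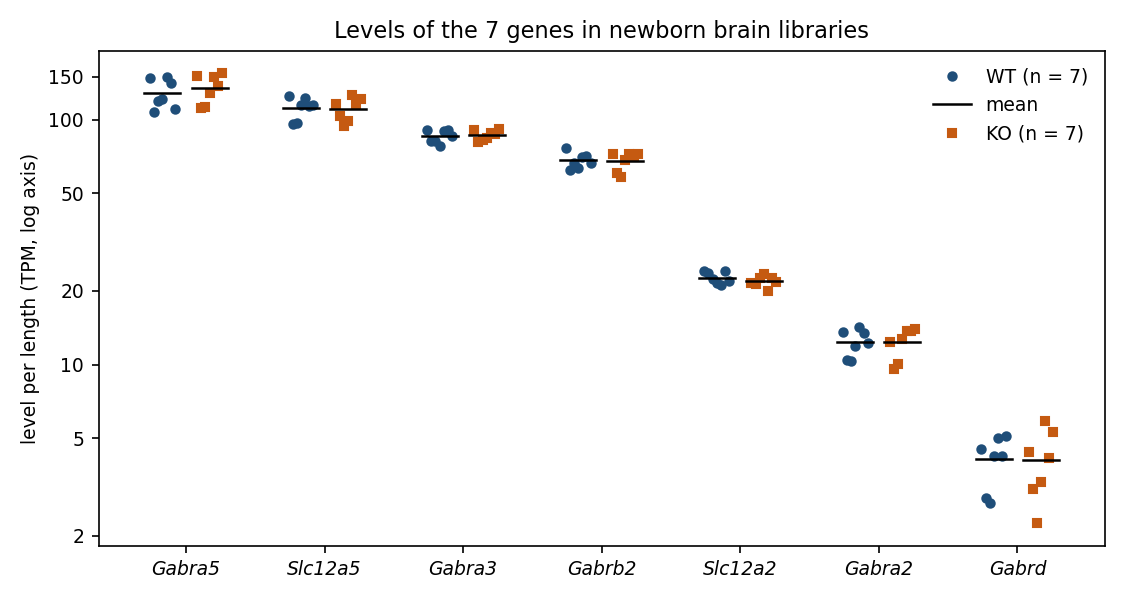
Level per length (TPM, log axis) of the 7 genes, with a point for each library, WT as circles and Capn15 KO as squares, and the mean of each genotype as a line. Gabra5 and Slc12a5 lie highest, Gabrd lowest at means of 4.10 and 4.06 TPM, and the genotypes overlap in every gene.

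The 3 alpha genes were then set against each other in the same libraries. Of their summed level per length, Gabra5 made up 56.5% ± 2.23 in WT brains (SD, n = 7) and 57.5% ± 1.96 in Capn15 KO brains. Gabra3 contributed 38.0% ± 2.22 and 37.2% ± 2.15, and Gabra2 only 5.45% ± 0.331 and 5.25% ± 0.413. The order was the same in both genotypes. The merged exon lengths enter these shares, and with the longest transcript Gabra3 held 36.8% and Gabra2 6.42% in WT. The strand setting of the counting is not given in the sources used here, so reads of a gene that overlaps another on the opposite strand could be mixed with those of its neighbour.

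The positions are given on GRCm38. Gabra2 (ENSMUSG00000000560) spans chr5:70957597-71095849 and Gabra3 (ENSMUSG00000031343) chrX:72432681-72656848, the latter with the microRNA genes Mir105 and Mir767 inside it on the same strand. Gabra5 (ENSMUSG00000055078) is at chr7:57407672-57510059, Gabrb2 (ENSMUSG00000007653) at chr11:42419757-42629028 and Gabrd (ENSMUSG00000029054) at chr4:155384980-155398112. Slc12a5 (ENSMUSG00000017740) is at chr2:164960802-164999731. The count of a gene sums its transcripts, which matters most for Slc12a5, where the RefSeq promoter table (GRCm38.p6) gives 2 starts. The sequences upstream of both, on the plus strand and ending before the first exon, are shown because transcripts from either start enter every Slc12a5 value below. Capitals mark CACGTG (an E-box) and GGGCGG (a GC box), searched on both strands together with GCGNGGGCG, the letters bound by Egr factors.
Slc12a5 upstream of the distal start, chr2:164960596-164960801: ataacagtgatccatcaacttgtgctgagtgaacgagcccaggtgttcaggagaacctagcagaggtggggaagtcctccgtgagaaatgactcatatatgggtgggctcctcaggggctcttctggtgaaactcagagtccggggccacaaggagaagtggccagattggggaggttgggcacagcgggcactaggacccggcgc
Slc12a5 upstream of the proximal start, chr2:164967738-164967982: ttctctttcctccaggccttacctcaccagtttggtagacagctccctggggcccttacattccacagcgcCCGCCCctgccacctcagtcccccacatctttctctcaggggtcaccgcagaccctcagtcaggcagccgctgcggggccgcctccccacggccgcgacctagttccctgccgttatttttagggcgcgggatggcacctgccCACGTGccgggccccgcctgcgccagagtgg
The distal window held none of the 3 motifs and 57.3% G and C. The proximal window held 1 CACGTG and 1 GGGCGG, the latter on the minus strand, and 66.5% G and C. Of 32851 promoters cut to the same length as the proximal window, 5.96% held CACGTG and 32.6% GGGCGG, so these matches describe the window and no more.

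The comparison asks whether these transcripts differ at P2 between WT brains and Capn15 KO brains, in which mean Capn15 was lower but not absent. No difference was found in any of the 7 genes. In edgeR's quasi-likelihood test, which adjusted for litter and sex, 0 of 7 had an adjusted p under 0.05, as against 1 of the 17927 genes (0.00558%), and 0 of 7 had an unadjusted p under 0.05, as against 5.14% of all genes. The likelihood ratio test, DESeq2 and limma-voom likewise called none of the 7, adjusted or not. All adjusted p-values of the quasi-likelihood test rounded to 1.

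Among the alpha subunits, Gabra2, which is found at many synapses of the forebrain, ran from 25.2 through a median of 30.8 to 34.5 CPM in WT and from 23.9 through 31.4 to 33.6 CPM in Capn15 KO brains. Its fitted difference, Capn15 KO minus WT, was 0.0050 ± 0.0358 (SE, log2), with a 95% interval of -0.07 to 0.08 and an unadjusted p of 0.892 in edgeR's test. Gabra3, an alpha subunit that is widespread in the immature cortex, lay at 101 to 113 CPM in WT (median 110.2) and 104 to 114 CPM in Capn15 KO brains (median 108). The difference for Gabra3 was 0.02, with an interval of -0.04 to 0.08. In neither gene did the genotypes separate. Gabra5 lay at 103 to 140.5 CPM in WT (median 118) and 108 to 145 CPM in Capn15 KO brains (median 128). With 0.08 ± 0.0494 (interval -0.02 to 0.19, unadjusted p = 0.111 in edgeR's test) it showed the largest difference of the 7 genes in size. That value rested on replicate 7, where the WT library held 108 and the Capn15 KO library 145 CPM, and it was 0.02 without the pair. Leaving out either library of replicate 5 instead gave 0.13 and an unadjusted p of 0.0457 without the WT library and 0.0456 without the Capn15 KO library, with the same test.

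Gabrb2, which encodes the beta subunit of many adult receptors, ran from 128 through a median of 139.6 to 150.4 CPM in WT and from 122 through 140.0 to 147 CPM in Capn15 KO brains, a difference of 0.0076 (interval -0.05 to 0.06). Gabrd, the delta subunit gene of receptors that sense ambient GABA, ran from 2.50 through 4.01 to 4.84 CPM in WT and from 2.13 through 3.75 to 5.38 CPM in Capn15 KO brains. Its difference was -0.03 ± 0.0888, and the interval of -0.22 to 0.16, or 0.860-fold to 1.12-fold, was the widest of the 7. The other 6 intervals lay between 0.928-fold and 1.14-fold. Genotype ranges overlapped over most of their length in both genes.

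The chloride importer Slc12a2 (ENSMUSG00000024597, chr18:57878678-57946821) held 72.9 to 83.0 CPM in WT (median 78.8) and 69.2 to 82.0 CPM in Capn15 KO brains (median 76.0). Its difference was -0.04 (interval -0.11 to 0.03, unadjusted p = 0.236 in edgeR's test). Choroid plexus epithelium also uses Slc12a2, and 9 of 12 markers of that tissue were lower in Capn15 KO brains at an unadjusted p under 0.05 while 1, Prlr, was higher, as against 2.26% lower and 2.88% higher among all genes. Without replicate 7 it was 8 lower and 0 higher. Over all 14 libraries none of the 12 passed the adjusted threshold in the quasi-likelihood test or limma-voom, whereas the likelihood ratio test called 2 and DESeq2 called 1. Without replicate 7 the quasi-likelihood test called 1 of the 12. Their mean log2 CPM was 3.25 to 3.48 in WT and 3.02 to 3.31 in Capn15 KO brains (exact permutation test, two-sided, p = 0.00233, n = 7 and 7), and no library had a choroid plexus marker at 0. That test left litter out and kept replicate 7. The list was chosen with earlier results of these data known, and the paper gives Ttr, a marker in it, as decreased in the same brains. The p-value is therefore no independent support for a difference. The part of these cells in the Slc12a2 value was not tested in this comparison. Slc12a5 held 230.1 to 289 CPM in WT (median 280.5) and 230.9 to 299.7 CPM in Capn15 KO brains (median 270.2), a difference of -0.03 (interval -0.11 to 0.05). In both transporters the genotypes overlapped.

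**Figure D2:**
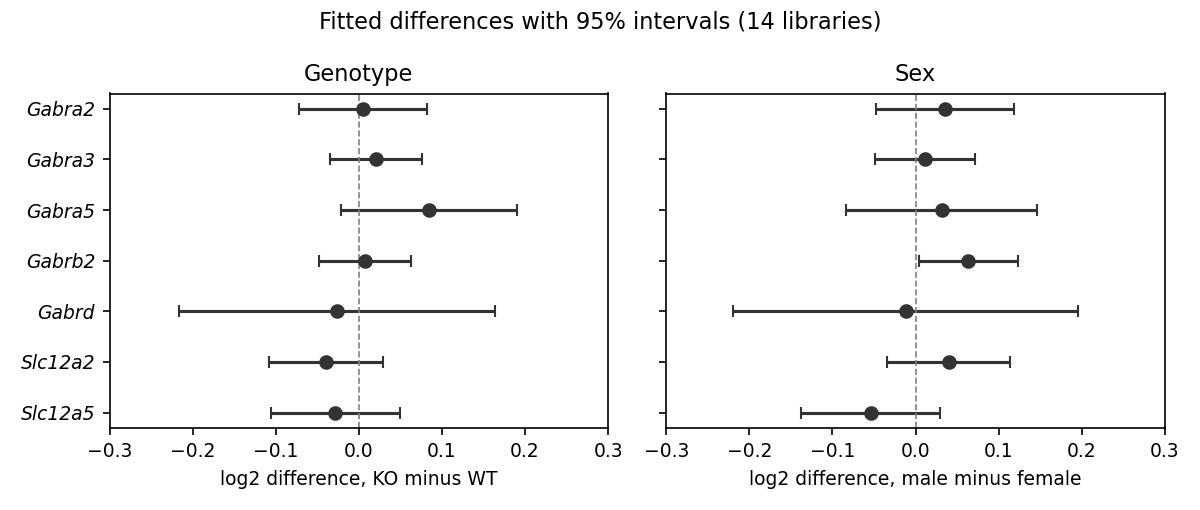
Fitted log2 difference of each gene, Capn15 KO minus WT on the left and male minus female on the right, with points for the estimate and bars for the 95% interval (14 libraries). All intervals include 0 for genotype, and for sex all but that of Gabrb2 do.

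Sex was fitted in the same model. Gabrb2 was 0.06 ± 0.0278 higher in males on the log2 scale at an unadjusted p of 0.0383 (adjusted p = 0.927, edgeR's quasi-likelihood test), and it was the only 1 of the 7 under an unadjusted 0.05, where all genes gave 5.04%. Without replicate 7 its unadjusted p was 0.0526 at the same size of 0.06 in that test. The other 6 genes had differences between -0.05 and 0.04 and unadjusted p-values of 0.188 or more. Of 8 hindbrain markers, 7 were lower in males at an unadjusted p under 0.05 with a median of -0.46, opposite in direction to Gabrb2. Within litters the gap was widest in litter C, where their mean log2 CPM was 0.388 in the male and 1.54 in the female. All 5 forebrain markers were higher in males, 1 of them at an unadjusted p under 0.05, with a median of 0.0967. The part of these marker differences in the Gabrb2 value was not tested.

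The balance of the transporters and of the subunits was examined as ratios of levels per length within each library, which need no scaling between libraries. WT brains held 0.204 ± 0.0261 units of Slc12a2 for each unit of Slc12a5 (SD, n = 7), with a lowest value of 0.172, a median of 0.193 and a highest of 0.246. In Capn15 KO brains the ratio was 0.200 ± 0.0301, with 0.157, 0.196 and 0.240. The genotypes overlapped almost fully, and the log2 ratio differed by -0.04 (exact permutation test over 3432 regroupings, two-sided, p = 0.734, n = 7 and 7). Slc12a5 thus exceeded Slc12a2 per length in all 14 libraries, and it did so with either definition of length, since the longest transcripts gave a ratio of 0.277 in WT.

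In the subunit ratios the genotypes overlapped as well. Gabra2 to Gabra3 was 0.144 ± 0.0124 in WT and 0.142 ± 0.0164 in Capn15 KO brains, and Gabra2 to Gabra5 0.0966 ± 0.00754 and 0.0912 ± 0.00659. Gabra3 to Gabra5 was 0.675 ± 0.0670 and 0.648 ± 0.0601. Gabrd to Gabrb2, the delta subunit gene against a beta gene, was 0.0599 ± 0.0130 and 0.0590 ± 0.0145. Unadjusted p-values of the 4 subunit ratios lay between 0.181 and 0.871 (exact permutation test, n = 7 and 7), and over the 5 ratios all adjusted p-values were 0.871. Across all 14 libraries the highest value was 2.09 times the lowest for Gabrd to Gabrb2, 1.56 times for Slc12a2 to Slc12a5, and 1.31 to 1.35 times for the 3 alpha ratios. Most of the spread between brains was found within each genotype.

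Of the fitted factors, litter was the one with which most of the 7 genes varied. It cannot be told apart from anything else that the brains of a litter shared, such as handling. In the test of all litter coefficients together (edgeR's quasi-likelihood test), 5 of the 7 genes had an adjusted p under 0.05, as against 29.6% of all genes. The adjusted p was 0.00035 for Gabra2, 0.00127 for Gabrd, 0.00394 for Slc12a5, 0.00789 for Gabrb2 and 0.0117 for Gabra5. Gabra3 (0.125) and Slc12a2 (0.133) did not pass. Without replicate 7 it was again 5 of 7, beside 27.5% of all genes. Without litter B it was 0 of 7 adjusted and 1 of 7, Gabrd, at an unadjusted p under 0.05, beside 1.09% and 16.7% of all genes, with 10 libraries in that fit. That litter was singled out after its values had been seen, and it is described here by sizes with no test.

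Litter B held less of most receptor genes. Gabrd stood at 2.13 to 2.91 CPM in its 4 libraries and at 3.08 to 5.38 CPM in the other 10, a fitted log2 difference of -0.71 ± 0.102 (SE) from the mean of the other litters. Gabra2 stood at 23.9 to 25.8 CPM in litter B and 29.8 to 34.5 CPM elsewhere, a difference of -0.35 ± 0.0392. In neither gene did litter B overlap the other libraries. Gabra5 (103 to 114 CPM, against 108 to 145), Slc12a5 (230.1 to 252 CPM, against 237 to 299.7) and Gabrb2 (122 to 135 CPM, against 133 to 150.4) overlapped with the rest, at differences of -0.26, -0.23 and -0.15. Gabra3 moved little, at 103 to 106 CPM against 101 to 114 and a difference of -0.07. Slc12a2 was the only 1 of the 7 with a difference above 0, at 0.05 ± 0.0339, with 76.0 to 83.0 CPM in litter B and 69.2 to 82.9 CPM elsewhere. The median over the 7 genes was -0.23, beside 0.0073 over all genes. Of the 7, 2 were below -0.3 (28.6%), beside 9.74% of all genes.

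**Figure D3:**
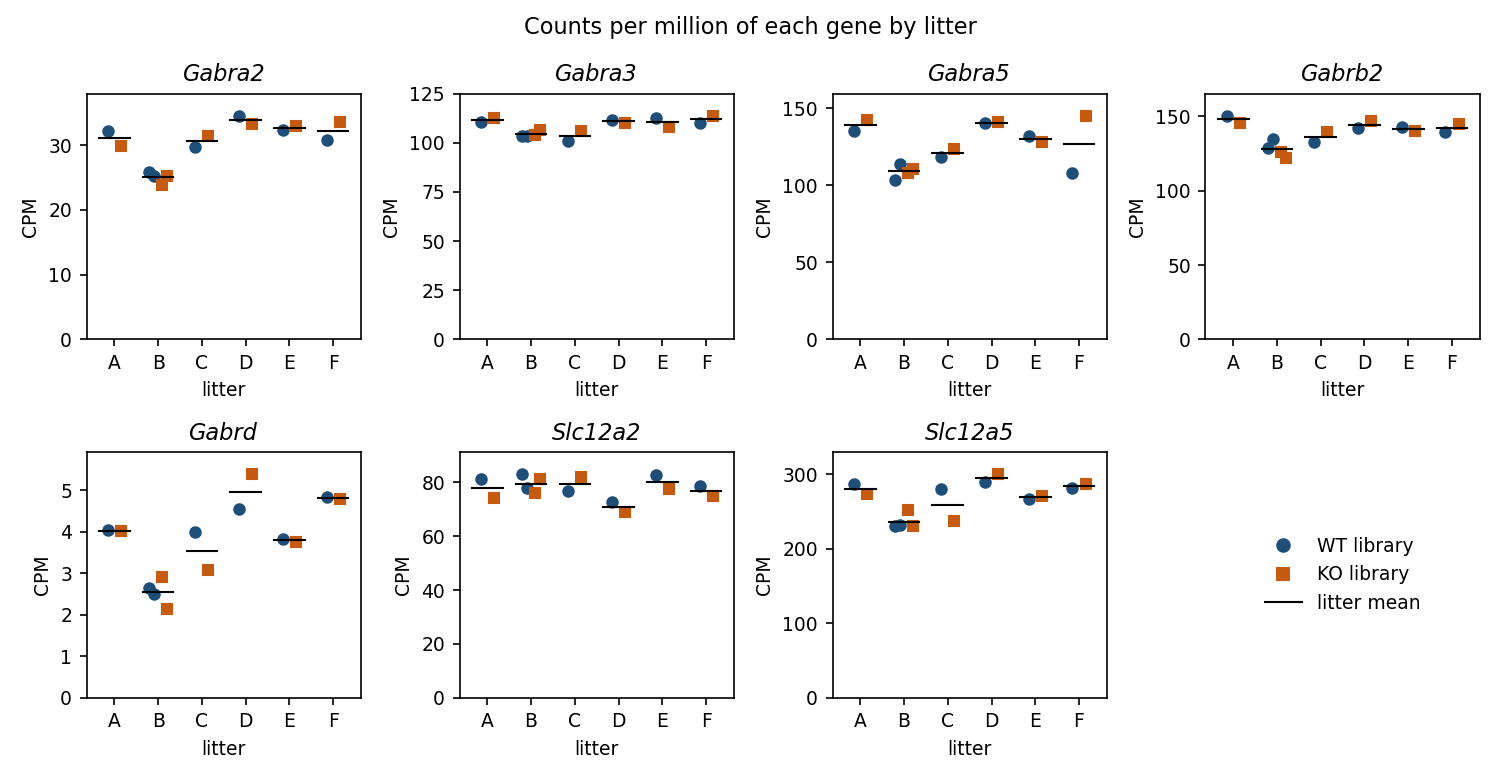
CPM of each of the 7 genes in litters A to F, with circles for WT libraries, squares for Capn15 KO libraries and a line for the litter mean, each axis starting at 0. The 4 libraries of litter B lie below all others for Gabrd (2.13 to 2.91 CPM) and Gabra2 (23.9 to 25.8 CPM), and the WT library of litter F is low for Gabra5 (108 CPM).

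The ratios differed between litter B and the rest in the direction these values give. Slc12a2 to Slc12a5 was 0.230 in litter B (0.205 to 0.246) and 0.191 elsewhere (0.157 to 0.236). Gabrd to Gabrb2 was 0.0441 (0.0388 to 0.0511) and 0.0656 (0.0488 to 0.0810). Gabra2 to Gabra3 was 0.123 (0.118 to 0.129) and 0.150 (0.136 to 0.159), the only 1 of these 3 without overlap. As a share of the 3 alpha genes, Gabra3 stood at 40.0% (38.7 to 40.8) in litter B and 36.7% (35.2 to 41.1) elsewhere, which overlapped. Among the other GABA-A subunit genes, 9 of 10 were below 0 in litter B, with a median of -0.12. Gabra4, an alpha subunit gene outside the 7, had a difference of -0.42 ± 0.0402, below those of Gabra2, Gabra3 and Gabra5.

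**Figure D4:**
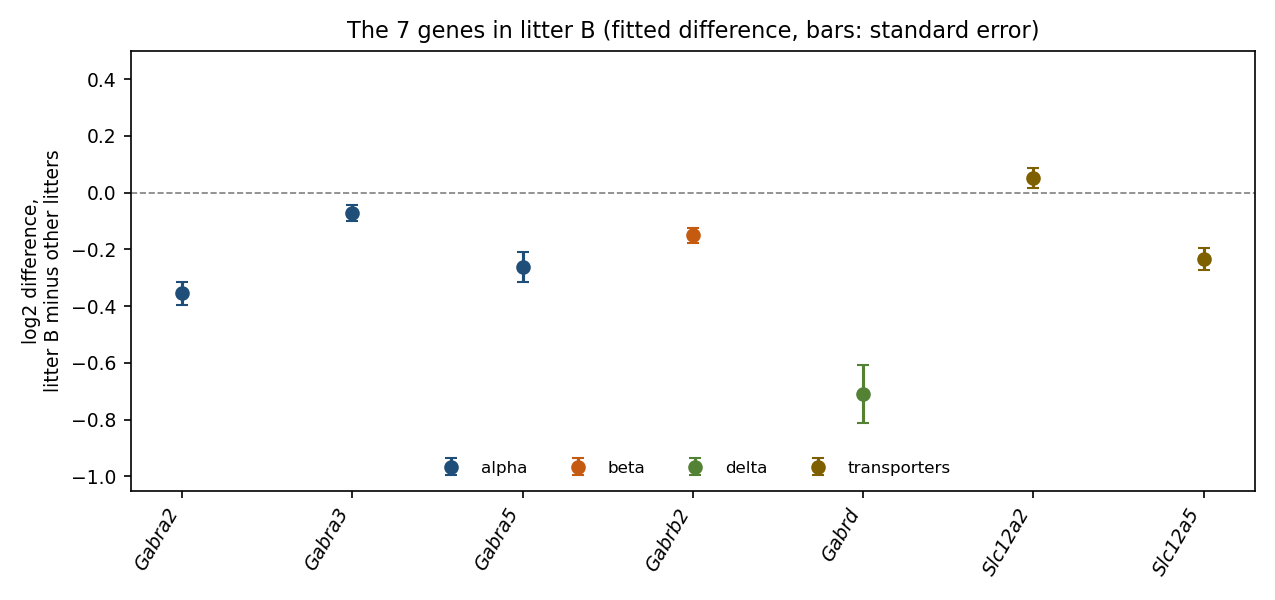
Fitted log2 difference between litter B and the mean of the other litters for the 7 genes, with points for the estimate and bars for the standard error. Gabrd lies lowest at -0.71, the alpha genes spread from -0.07 (Gabra3) to -0.35 (Gabra2), and Slc12a5 (-0.23) and Slc12a2 (0.05) lie on opposite sides of 0.

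Markers of cell type and maturity moved with litter B too. Its libraries had 9.32 to 9.48 mean log2 CPM over 6 markers of immature neurons, against 8.78 to 9.21 in the others, and 7.07 to 7.20 over 6 markers of maturing neurons, against 7.17 to 7.44. Markers of oligodendrocyte precursors (5.08 to 5.22, against 5.29 to 5.59) and of astrocytes and radial glia (7.28 to 7.65, against 7.70 to 8.04) were lower, each list below the other litters in all 4 libraries. The median difference of 8 hindbrain markers was 0.55. None of the markers was at 0 in any library. The part of these differences in the values of the 7 genes was not tested.

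Relations of the 7 genes and of the Slc12a2 to Slc12a5 ratio with 8 marker lists were computed across libraries, 64 in all, after the genotype means had been subtracted. Because litter B stood apart on the immature neuron list, coefficients are given for the 10 libraries of the other litters, a choice made after seeing the data. In these, 3 of the 64 passed an adjusted p of 0.05 by Pearson's r and 2 by Spearman's rho, both of them with choroid plexus markers. Slc12a5 was higher where choroid plexus markers were lower (r = -0.858, permutation p = 0.00012, adjusted p = 0.00768, rho = -0.976 with permutation p = 2e-05, n = 10), and r was -0.823 without the 2 libraries farthest from the median of the list. Slc12a5 was also higher where the maturing neuron markers were higher (r = 0.866, permutation p = 0.0004, adjusted p = 0.00853, rho = 0.855 with permutation p = 0.00306, n = 10). This relation fell to 0.593 without the 2 farthest libraries and so rested in part on them. The Slc12a2 to Slc12a5 ratio was higher where choroid plexus markers were higher (r = 0.880, permutation p = 0.00026, adjusted p = 0.00832, rho = 0.915 with permutation p = 0.00045, n = 10), with 0.761 without the 2 farthest. Slc12a5 is the denominator of this ratio, so the relation is not independent of that of Slc12a5 with the same list. Slc12a2 itself gave r = 0.821 with that list (permutation p = 0.00357, adjusted p = 0.0546, rho = 0.806 with permutation p = 0.00664, n = 10), which missed the threshold and was 0.567 without the 2 farthest. The 10 libraries come from 5 litters, so they are not fully independent.

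**Figure D5:**
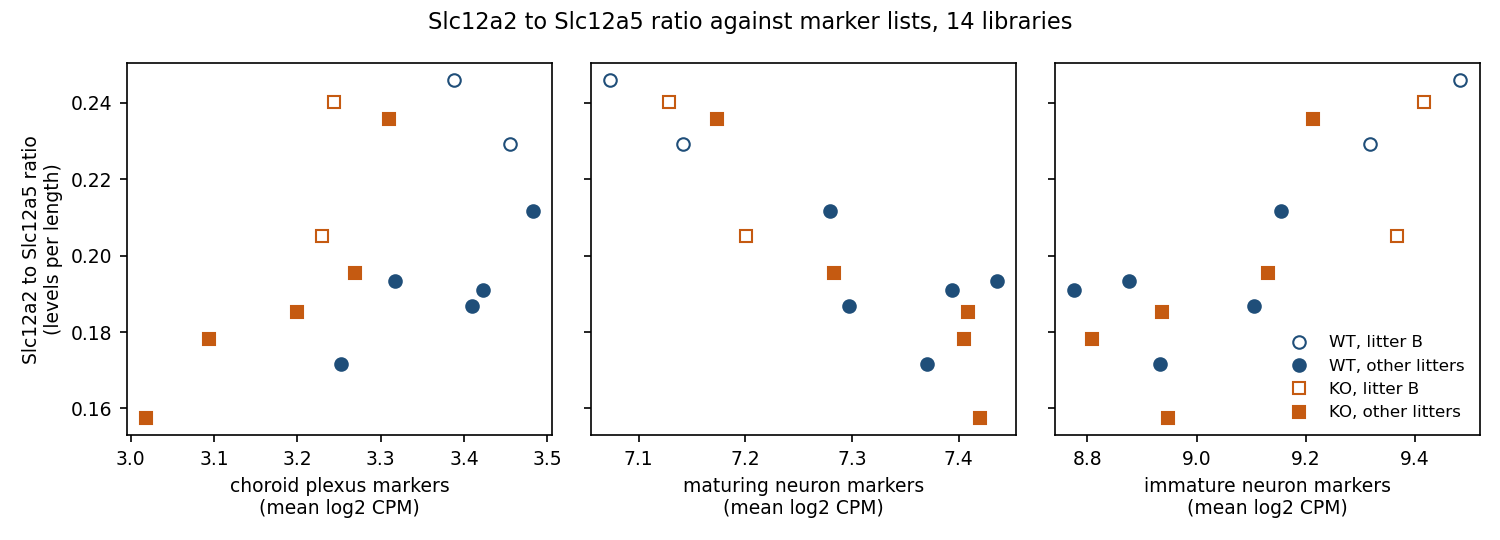
Slc12a2 to Slc12a5 ratio of each library against the mean log2 CPM of choroid plexus, maturing neuron and immature neuron markers, with open symbols for litter B, circles for WT and squares for Capn15 KO. Litter B lies at 0.205 to 0.246 and apart on the immature neuron axis (9.32 to 9.48), and the highest ratio outside it, 0.236, belongs to the Capn15 KO library of litter C.

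The genes whose log2 CPM most resembled that of each gene over the 14 libraries were picked among 15227 genes with a mean of at least 1 CPM, after subtracting genotype means, and are given as a description. For Slc12a5 these were Rap1gap (r = 0.985), Nptxr (0.982) and Slc2a6 (0.980), and without litter B the same 3 gave 0.967, 0.983 and 0.958. For Slc12a2 they were Gm9531 (0.936), Pax6 (0.879), a factor of neural progenitors, and Rbm47 (0.869). Gabrd resembled Adcy3 (0.975), Caly (0.974) and Lin7b (0.971), and Gabrb2 resembled Lclat1 (0.984), Pola1 (0.969) and Agtpbp1 (0.967). For Gabra2 they were Katnal1 (0.970), Kcnc2 (0.969) and Rab9b (0.960), which fell to 0.761, 0.834 and 0.709 without litter B. Gabra3 resembled Tmem181a (0.954), Adra2c (0.939) and Nkain2 (0.919), and Gabra5 resembled Prkaa2 (0.937), Gpd2 (0.936) and Tafa1 (0.932). Among the 7 genes themselves, Gabrd and Slc12a5 were most alike (0.951, and 0.907 without litter B), while Slc12a2 and Slc12a5 ran in opposite directions (-0.680, and -0.825 without litter B). The points share litters, so that few independent points stand behind each r.

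The wider pathway was counted over lists of partners and regulators. Over 46 genes of 5 lists, 3 had an unadjusted p under 0.05 with a higher level in Capn15 KO brains and 0 with a lower level, beside 2.88% higher and 2.26% lower among all genes, and none passed the adjusted threshold in the quasi-likelihood test, the likelihood ratio test, DESeq2 or limma-voom. The 3 were Wnk1 and Wnk2, kinases upstream of the transporters that raise the activity of Slc12a2 and lower that of Slc12a5, and Shisa7, a protein bound to GABA-A receptors. The fitted difference of Wnk1 was 0.14 ± 0.0383 (84.5 CPM in WT and 90.4 in Capn15 KO brains, edgeR's unadjusted p of 0.00229 and adjusted p of 0.475). That of Wnk2 was 0.10 ± 0.0337 (edgeR's adjusted p, 0.746), and that of Shisa7 0.16 ± 0.0689 (edgeR's adjusted p, 0.958). The count is close to the share of all genes and is given as a description. It was 2 of the 46 without replicate 7, 0 with genotype alone in the model, and 6 without litter B.

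By list, 2 of the 3 were among the 8 regulators of the transporters, of which Neto2 (151 TPM in WT), which binds Slc12a5, and Cab39 (123 TPM) had the highest levels. The third was among the 13 scaffold and trafficking proteins, of which Gabarapl1 (323 TPM) and Hap1 (299 TPM), both tied to receptor trafficking, were the most abundant. None of the 10 other GABA-A subunit genes had an unadjusted p under 0.05. Nor did any of 10 other chloride and bicarbonate carriers and channels, led by Slc4a10 (58.6 TPM) and Slc4a3 (55.7 TPM), or of 5 genes of the GABA-B receptor, led by Gabbr1 (269 TPM) and Kctd12 (122 TPM). In the litter test, adjusted p-values were under 0.05 for 4 of 10 other subunits, 3 of 13 scaffold proteins, 3 of 10 carriers, 3 of 8 regulators and 3 of 5 GABA-B genes, beside 29.6% of all genes. Gabra6, Gabrp, Gabrr2, Gabrr3, Slc12a1 and Slc12a3 were not analysed here.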

How the data were processed

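RNA-SEQ libraries of 7 WT and 7 Capn15 KO brains were used. The authors deposited raw counts per gene, 1 column per brain, after trimming with Trimmomatic, alignment to GRCm38 with STAR and counting per annotated gene. The methods name HTSeq-count and the ScriptSeq kit, and the submitters' notes featureCounts and a stranded TruSeq kit. The strand setting, annotation release and gene filter are not given in the sources used here. A second deposited table pairs identifiers with symbols. Litter and sex come from the column names, in which same-numbered WT and Capn15 KO brains share a litter. The members and lists were chosen with earlier results of these data known.

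Counts were fitted in R 4.3.3 with edgeR 4.0.16 (quasi-likelihood test, TMM factors, genes with at least 1 count, with litter, sex and genotype), and p-values were adjusted by Benjamini-Hochberg over 17927 genes. limma 3.58.1 (voom), DESeq2 1.42.0 and other settings were alternatives. CPM values are TMM-scaled, and log2 CPM uses a prior count of 2. Lengths came from GENCODE M21 (17909 genes matched). Ratios were tested in Python 3.11.15 with scipy 1.17.1 by exact permutation and, over 7 pairs, sign flips (smallest p 0.0156). Correlations used 100000 permutations. Tests are two-sided. The p-values of the main fit set a difference against the variation left between brains after litter, sex and genotype were fitted. The exact permutation tests and the correlation permutations took no account of litter. Depth limits precision to counting error of at least 3 counts, and intervals cover the fit only. On simulated counts for the genotype comparison (17927 genes, 200 changed), 179 were recovered with 11 false calls, and 24 of 34 genes raised 1.25-fold were. The simulation gave litter and sex differences to few genes and held no pair that goes against its labels. Its 200 changed genes also make the adjusted threshold easier to pass. Recovery in the real libraries can be lower, where Capn15 itself, at -0.81, had an adjusted p of 0.0747 in edgeR's quasi-likelihood test. Deviations of same-numbered brains correlated from -0.47 to 0.44 over 15227 genes. Named genes are Capn15, the 7 genes, in each list those under an unadjusted 0.05 for genotype and the 2 highest per length, and the 3 most similar genes of each member. Other genes were named after their values were seen. Of the 7 genes, 5 matched the promoter table. The values of some subunit genes, which stay in every fit and count, are not reported here.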

Additional observations from a re-analysis of the deposited data

How the results depend on the processing

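For genotype, the quasi-likelihood test called 1 gene of 17927, the likelihood ratio test 34, DESeq2 22, total count scaling 0, the replicate block 0, the fit without both replicate 7 libraries 7 and that without litter B 0. Leaving out each library in turn gave 0 to 7 genes, and 0 to 1 of the 7 genes described here at an unadjusted p under 0.05. The replicate block changed no call of the 7 genes or the 5 ratios for genotype, and under it 8 of the 12 choroid plexus markers were lower and 0 higher at an unadjusted p under 0.05. The litter test called 5301 genes and 196 without litter B, with 5 and 0 of the 7 genes. Relations passing numbered 38 of 64 over 14 libraries and 3 without litter B. The cause was not tested, but fewer libraries entered these last fits.

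None of the 7 genes or 5 ratios was called for genotype after adjustment in any setting, so sign changes are of values within their error. Gabra2 turned to -0.0025 with genotype alone and -0.0178 without replicate 7, and Gabrb2 to -0.0090 and -0.00098. Gabra2 to Gabra3 turned to 0.00066 without litter B. Leaving out 1 library at a time gave -0.0207 to 0.0414 for Gabra2, -0.0040 to 0.0162 for Gabrb2, -0.15 to 0.0826 for Gabrd, -0.0795 to 0.0317 for Slc12a5, -0.0554 to 0.0199 for Gabra2 to Gabra3, -0.12 to 0.0648 for Gabrd to Gabrb2 and -0.0837 to 0.0180 for Slc12a2 to Slc12a5. Over all alternatives, 151 values of the 7 genes' differences kept their direction and 17 did not. By sign flips over the 7 pairs, the replicate block for the ratios, adjusted p-values were 0.781 to 0.797 (exact test). With the longest transcript length, the WT ratios were 0.175 for Gabra2 to Gabra3, 0.113 for Gabra2 to Gabra5, 0.0399 for Gabrd to Gabrb2 and 0.277 for Slc12a2 to Slc12a5. Gabrd, at 80 to 284 counts per library, has the least precise values.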

Other observations

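The genes of this paragraph were chosen after their values were seen. Gabrb1, a beta subunit gene, was 0.12 ± 0.0381 higher in males on the log2 scale (unadjusted p = 0.00789, adjusted p = 0.927, edgeR's quasi-likelihood test), the only 1 of the 10 other GABA-A subunit genes with an unadjusted p under 0.05 for sex, beside 5.04% of all genes. Litter B also held less of Slc12a4, a potassium-chloride cotransporter (-0.26 ± 0.0463), and of Gabbr2, a subunit of the GABA-B receptor (-0.23 ± 0.0361), and more of Slc12a7 (0.19 ± 0.0624), relative to the mean of the other litters.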
